A study of Homo sapiens with 54 samples.

Results

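The genes described here are 64 nuclear tRNA genes on human chromosomes 2, 3, 4, 5, 7, 8, 9 and X, taken by chromosome alone from the 422 numbered nuclear tRNA genes of the RefSeq annotation of GRCh38 (genes with a symbol of the form TRA-AGC1-1, lying beyond the first 100 kb of their chromosome). No measured value was used to choose them. In such a symbol the letter after TR stands for the amino acid, the next 3 letters for the anticodon, the first number for the mature tRNA sequence and the last number for the copy of it. Chromosome 7 holds 22 of the genes and chromosome 5 holds 18. Chromosome 2 holds 8, chromosome 8 holds 5, chromosomes 3 and X hold 4 each, chromosome 9 holds 2 and chromosome 4 holds 1. The 18 cysteine genes of chr7:149310190-149707740 and the 17 genes of chr5:181097070-181222467 were described as clusters of their own, apart from the remaining 29 genes.

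tRNA genes are transcribed by RNA polymerase III from promoter elements inside the gene. Transcription factor TFIIIC binds these elements and places TFIIIB, of which Brf1 is a part, just upstream of the start site, and TFIIIB brings in the polymerase. POLR3A is the largest, catalytic subunit of the polymerase, POLR3C belongs to its initiation subcomplex, and POLR3G and POLR3GL are alternative subunits of that subcomplex. Maf1 is a conserved repressor that binds the polymerase. The progesterone receptor (PR) is a hormone-activated transcription factor, and H3K27Ac, acetylated lysine 27 of histone H3, marks active promoters and enhancers.

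The study measured binding by chromatin immunoprecipitation followed by sequencing (ChIP-seq) in T47D, a human breast cancer cell line that expresses PR. The cells received ethanol (vehicle) or R5020, a synthetic progestin, for 1 h. Each of the 8 antibodies (PR, POLR3A, POLR3C, POLR3G, POLR3GL, Maf1, Brf1 and H3K27Ac) has 3 libraries per treatment, and 3 input libraries per treatment complete the 54. The title names the question, which is whether Maf1 and PR act together on RNA polymerase III at select tRNA genes.

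The lists ranged from 370 regions (Brf1, vehicle) to 173129 regions (PR, R5020), and those of Maf1 held 3049 regions with vehicle and 22683 with R5020. Each list stands for 3 libraries of 1 cell line, so the spread between replicates is unknown, no difference between treatments was tested, and the sequencing depth is unknown. A region was assigned to a gene up to 200 bp away, and a gene without one had no region that passed the authors' threshold, which does not show that the protein was absent. The fold is the authors' own enrichment over background at the summit of a region and describes a region within its own list only. Shares are given with 95% Wilson intervals, which cover counting error of genes; neighbouring genes share regions and are not independent. For POLR3C, POLR3G and POLR3GL, 4 of the libraries titled R5020 are tagged as ethanol in another label (2, 1 and 1), so the treatment of those 3 lists rests on the titles.

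The vehicle list placed POLR3A at 48 of the 64 genes (75%, 63.2 to 84.0) and the R5020 list at 44 (68.8%, 56.6 to 78.8). Over all 422 tRNA genes the shares were 85.3% and 85.1%. Most genes without the polymerase lay on chromosome 7. In the chromosome 7 cysteine cluster POLR3A was found at 10 of 18 genes with vehicle and 7 with R5020, against 16 and 15 of 17 in the chromosome 5 cluster and 22 and 22 of the 29 remaining genes. Several genes lay under 1 region: the 48 genes had 38 distinct regions with vehicle, and the 44 genes had 35 with R5020.

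**Figure D1:**
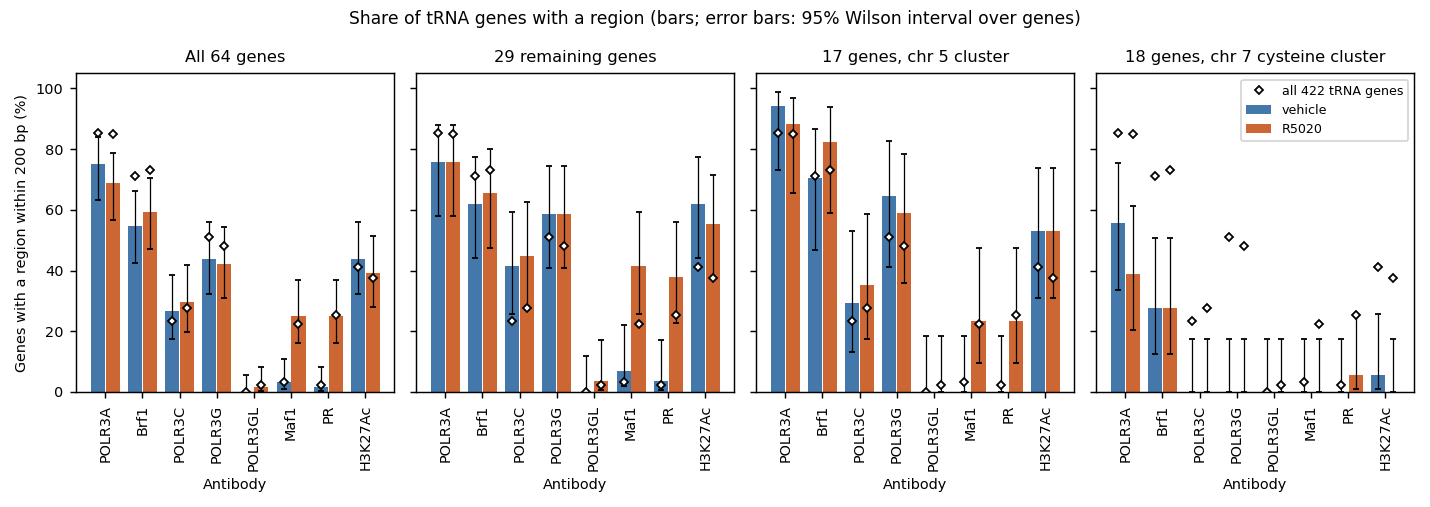
Share of genes with a region within 200 bp (vertical axis, %) for each antibody, with vehicle (blue bars) and R5020 (orange bars), for all 64 genes and for the 3 subsets; error bars are 95% Wilson intervals over genes and diamonds are the shares of all 422 tRNA genes. POLR3A and Brf1 bars are lowest in the chromosome 7 cysteine cluster, where the POLR3C, POLR3G and Maf1 bars are at 0.

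The median POLR3A fold over the 38 vehicle regions was 30.1 (range 4.87 to 58.0), and over the 35 R5020 regions it was 39.0 (3.85 to 71.4). At the other 358 tRNA genes the medians were 36.7 and 45.6. The highest fold of the vehicle list, 58.0, was shared by 14 regions, so genes at it cannot be ranked among themselves. Of the 64 genes, 8 lay at 4 of these regions. They included TRY-GTA2-1 and TRA-AGC8-1 (a tyrosine and an alanine gene), TRG-CCC2-1 (glycine), and TRA-CGC3-1 and TRG-GCC2-2 (alanine and glycine). The others were TRL-AAG2-1, TRV-AAC2-1 and TRP-TGG3-1 (leucine, valine and proline). The highest fold of the R5020 list, 71.4, was shared by 20 regions. The 7 genes at it, under 5 of these regions, were TRY-GTA2-1, TRA-AGC8-1, TRG-CCC2-1, TRI-TAT2-1 (isoleucine), TRR-ACG2-1 (arginine), TRA-TGC3-1 (alanine) and TRK-CTT2-2 (lysine). Some named genes share a region that peaked in a neighbour. TRL-AAG2-1 lay 698 bp from its vehicle summit and TRK-CTT2-2 lay 866 bp from its R5020 summit. Only TRY-GTA2-1, TRA-AGC8-1 and TRG-CCC2-1 were at the top of both lists.

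No gene had POLR3A with R5020 alone, and 4 had it with vehicle alone (over all 422 genes, 1.66% and 1.90%). All 4 had vehicle regions in the lower part of that list, and none of them had Brf1. TRL-AAG1-1, a leucine gene at chr5:181097474-181097555, had a vehicle fold of 10.2. The cysteine genes TRC-GCA10-1 (chr7:149377510-149377581), TRC-GCA22-1 (chr7:149556711-149556780) and TRC-GCA23-1 (chr7:149595214-149595285) had vehicle folds of 5.19, 4.96 and 4.87. The status of TRL-AAG1-1 turns on the window: its vehicle region was shared with the valine gene TRV-CAC1-2 and peaked 365 bp away from it, and with R5020 the nearest POLR3A region ended 232 bp away. Among the other 358 tRNA genes, POLR3A was in the vehicle list alone at 4 and in the R5020 list alone at 7.

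Brf1 was found at 35 of the 64 genes with vehicle (54.7%, 42.6 to 66.3; all tRNA genes 71.1%) and at 38 with R5020 (59.4%, 47.1 to 70.5; all 73.2%). Each gene with Brf1 also had POLR3A. No gene had Brf1 with vehicle alone (all 1.18%), and 3 had it with R5020 alone (all 3.32%). These were the valine genes TRV-CAC1-2 (chr5:181097070-181097142, fold 5.79) and TRV-CAC1-3 (chr5:181102253-181102325, 7.34) and the proline gene TRP-AGG2-3 (chr7:128783450-128783521, 5.59). The R5020 list was also limited to its strongest 370 regions, the length of the vehicle list. Brf1 was then at 33 genes with R5020 against 35 with vehicle, so the sign of this difference depends on the length of the lists. TRV-CAC1-2, TRV-CAC1-3 and TRP-AGG2-3 all dropped out under this limit. The highest Brf1 fold of the 64 genes was at TRG-CCC2-1 in both lists, 50.4 with vehicle and 90.7 with R5020. This glycine gene lies at chr2:70248991-70249061, 198 bp from the nearer boundary of TIA1, which encodes an RNA-binding protein. Strand was not known here, so that boundary may be where TIA1 starts or where it stops.

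POLR3A without Brf1 marked genes with a low fold. With vehicle, the 13 genes with POLR3A alone had 12 regions with a median POLR3A fold of 9.08 (4.87 to 24.3). The 26 regions of the 35 genes with both had a median of 44.1 (15.4 to 58.0), and the 2 ranges overlapped only between 15.4 and 24.3. Of the 21 cysteine genes, 13 had POLR3A with vehicle and 5 had Brf1. Among the other 358 tRNA genes the median POLR3A fold was 7.97 without Brf1 and 41.1 with it, so the contrast is not limited to these chromosomes.

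**Figure D2:**
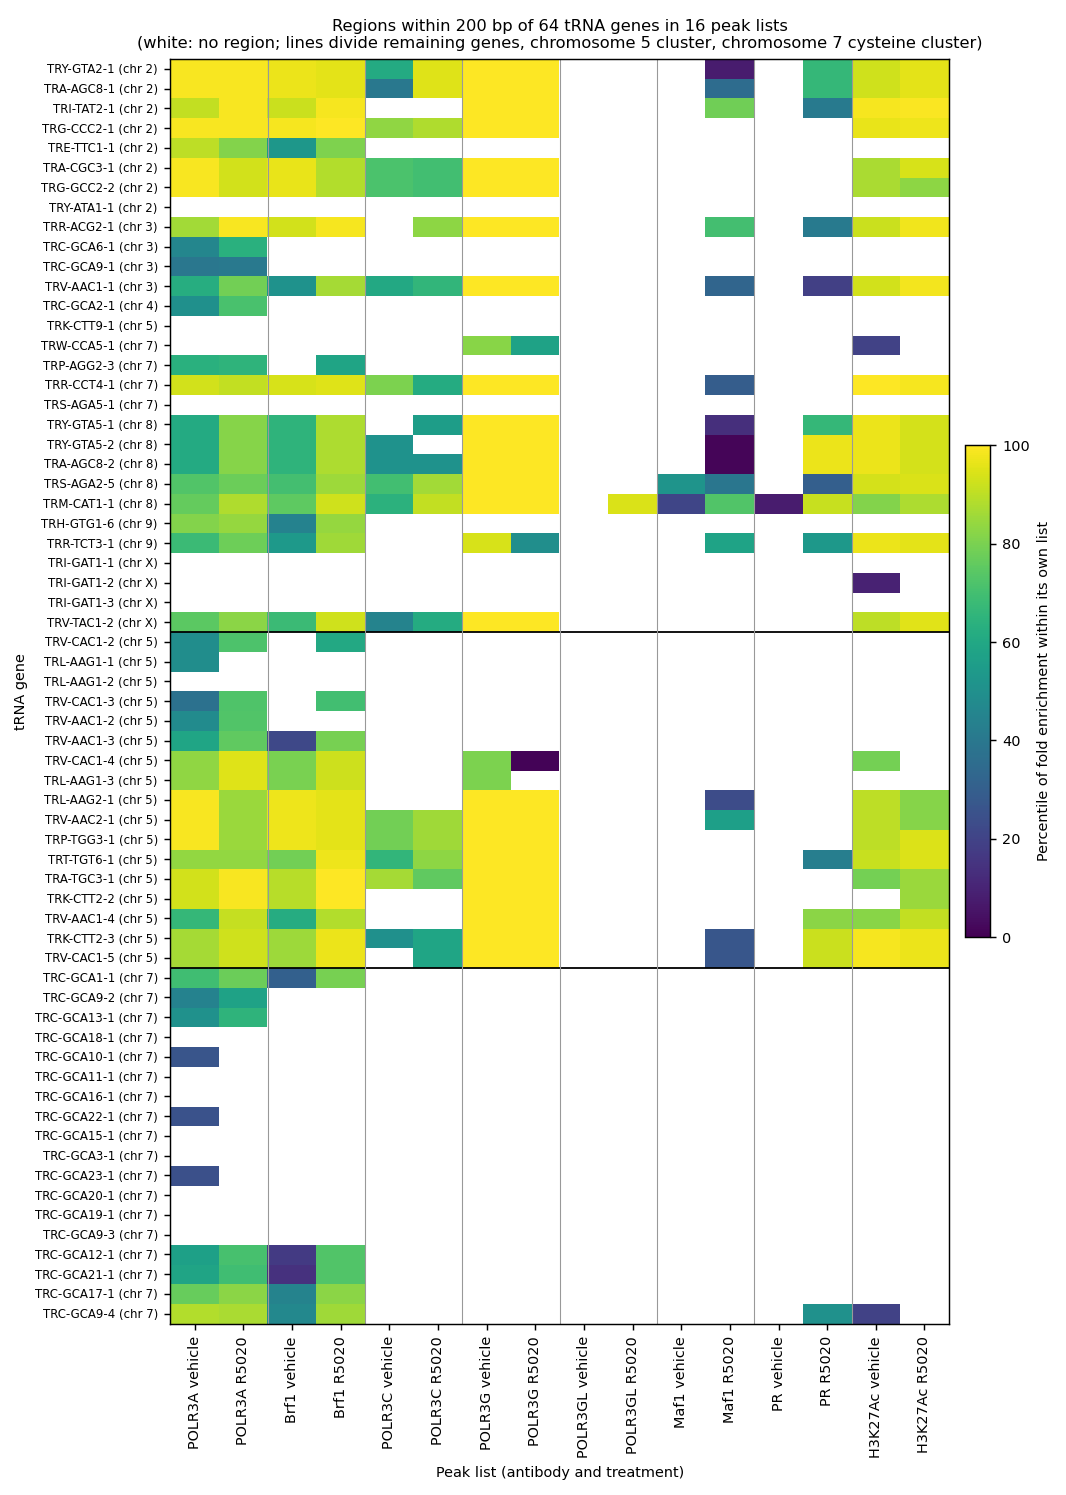
Each row is 1 of the 64 genes and each column 1 of the 16 lists; colour is the percentile, within its own list, of the fold of the region with the highest -log10 q within 200 bp of the gene (0 to 100), and white means no region. The remaining genes are above, then the chromosome 5 cluster, then the chromosome 7 cysteine cluster, in chromosomal order; the first genes of the chromosome 5 cluster and nearly all cysteine genes are white outside the POLR3A and Brf1 columns.

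The chromosome 7 cysteine cluster spans 398 kb and holds 18 of the 29 cysteine tRNA genes in all, with zinc finger genes as most of its protein-coding neighbours. POLR3A regions were listed at its ends, with few in its middle. How reads from similar gene copies were placed is not given in the sources used here. The first 3 genes had POLR3A with both treatments: TRC-GCA1-1 (fold 31.5 with vehicle and 31.1 with R5020), TRC-GCA9-2 (8.89 and 6.59) and TRC-GCA13-1 (11.1 and 10.3). So did the last 4: TRC-GCA12-1 (15.4 and 14.2), TRC-GCA21-1 (16.9 and 13.2), TRC-GCA17-1 (39.3 and 41.1) and TRC-GCA9-4 (49.1 and 51.6). In between lay 11 genes, of which 8 had no POLR3A region and 3 only the low vehicle regions given above. At each end the fold was highest at the outermost gene.

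Brf1 followed the same genes with fewer calls. It was found in both lists at TRC-GCA1-1 (fold 7.13 with vehicle, 17.0 with R5020), TRC-GCA12-1 (5.14, 8.68), TRC-GCA21-1 (4.65, 8.68), TRC-GCA17-1 (13.9, 26.7) and TRC-GCA9-4 (15.3, 38.9). The cluster had no POLR3C, POLR3G, POLR3GL or Maf1 region in any list. TRC-GCA9-4, the last gene (chr7:149707669-149707740), was the only one with PR (R5020, fold 5.97) and the only one with H3K27Ac (vehicle, fold 2.94). The serine gene TRS-AGA5-1, which lies within the span of the cluster, had no region in any of the 16 lists.

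The chromosome 5 cluster divided along its length, a split made here after its values were seen. The first 6 genes (chr5:181097070-181169682) lie closest to the olfactory receptor genes OR2V1 and OR2V2. They had POLR3A at 5 genes with vehicle and 4 with R5020, Brf1 at 1 and 3, and no region of the other 6 antibodies. The last 11 genes (chr5:181173650-181222467) include 9 that lie closest to TRIM7 or TRIM41, which encode tripartite motif proteins. They had POLR3A and Brf1 at all 11 with both treatments, POLR3G at 11 and 10, H3K27Ac at 9 and 9, and POLR3C at 5 and 6. Maf1 and PR were found at 0 of the 11 with vehicle and at 4 each with R5020.

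Valine genes of identical mature sequence lay on both sides of this split, and their folds were among the values it was made from. TRV-CAC1-2 and TRV-CAC1-3, in the first stretch, had POLR3A folds of 10.2 and 7.18 with vehicle and 16.1 and 16.9 with R5020. TRV-CAC1-4 and TRV-CAC1-5, in the second stretch, had 45.6 and 47.6 with vehicle and 66.9 and 61.4 with R5020. In the same way TRV-AAC1-2 and TRV-AAC1-3 had vehicle folds of 10.0 and 17.9, and TRV-AAC1-4, further along, had 27.6. The POLR3A regions of TRV-CAC1-5 were shared with the lysine gene TRK-CTT2-3, 344 bp away. The vehicle region peaked inside TRK-CTT2-3, so its fold cannot be assigned to the valine gene alone. With R5020 the summit lay 378 bp from TRK-CTT2-3. The 3 leucine genes TRL-AAG1-1, TRL-AAG1-2 and TRL-AAG1-3 are each paired with such a valine gene, and every POLR3A or Brf1 region assigned to them is one shared with the valine neighbour. TRL-AAG1-2 missed the window by 9 bp with vehicle, the nearest POLR3A region ending 209 bp away, and at TRL-AAG1-3 the summits lay 352 bp (vehicle) and 356 bp (R5020) from the gene. No POLR3A summit lay within a gene of this leucine group.

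**Figure D3:**
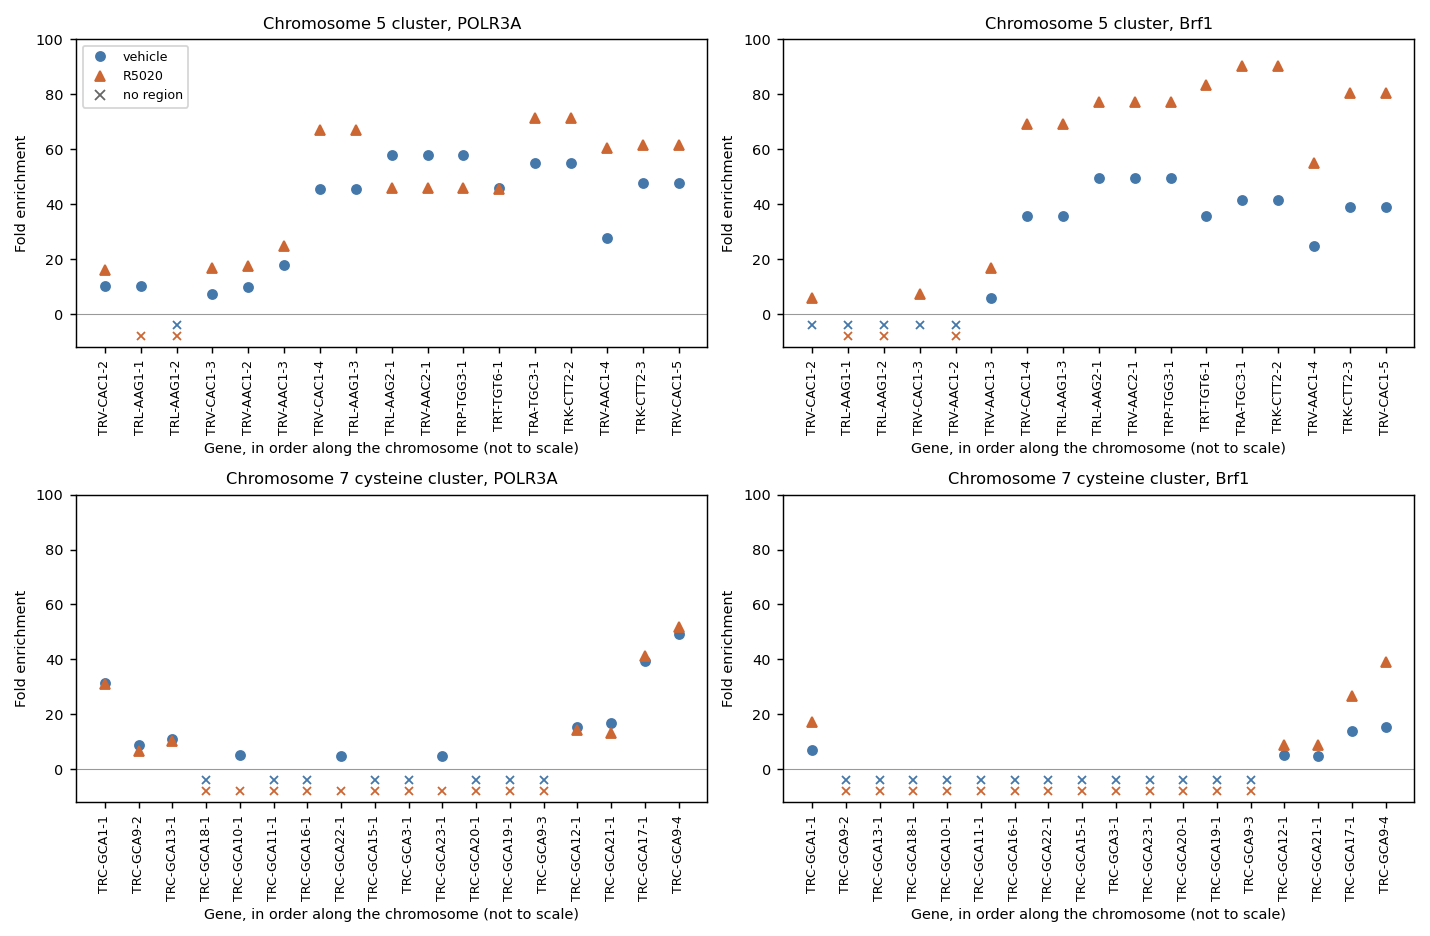
Fold enrichment of POLR3A (left) and Brf1 (right) at each gene of the chromosome 5 cluster (top) and the chromosome 7 cysteine cluster (bottom), in chromosomal order and not to scale; blue circles are vehicle, orange triangles R5020, and crosses below 0 mark genes without a region. POLR3A folds are low in the first 6 genes on chromosome 5 and high in the last 11, and on chromosome 7 regions are found mainly at both ends; folds of the 2 treatments belong to different lists and are not compared as a change.

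Copies with 1 mature sequence also differed between chromosomes. These copies are short and nearly identical, so reads could have been placed at the wrong one. The handling of such reads is not given in the sources used here. This limit also holds for copies on the same chromosome, such as those within the clusters and the TRI-GAT1 genes of the X chromosome. TRC-GCA2-1 on chromosome 4 (chr4:123508850-123508921) had POLR3A folds of 10.9 with vehicle and 14.5 with R5020 and no Brf1. Its 3 copies elsewhere had 52.6 to 56.8 and 64.8 to 69.4. TRP-AGG2-3 on chromosome 7 had 24.3 and 10.1, below all 7 other copies in both lists (27.7 to 56.7 and 17.5 to 69.0). The 4 TRC-GCA9 copies, all among these genes, had vehicle folds of 7.59 (TRC-GCA9-1, chromosome 3), 8.89 (TRC-GCA9-2), no region (TRC-GCA9-3) and 49.1 (TRC-GCA9-4).

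Other copies stood at the upper end of their group. TRR-ACG2-1, an arginine gene at chr3:45688999-45689071, had 47.1 with vehicle and 71.4 with R5020, above its 3 other copies (8.31 to 40.7 and 8.67 to 68.5). TRA-AGC8-1 and TRA-AGC8-2 are the 2 copies of an alanine tRNA, and each lies beside a tyrosine gene within a protein-coding gene. The copy within AGBL5 on chromosome 2 had 58.0 and 71.4, and the copy within TRIM55 on chromosome 8 had 20.7 and 39.0. The first copy shares its regions with TRY-GTA2-1, and the second has the same folds as its neighbours TRY-GTA5-1 and TRY-GTA5-2. These folds therefore cannot be assigned to the alanine copies alone. On chromosome 2 the summit lay inside TRA-AGC8-1 in both lists. Both copies had Brf1, POLR3C, POLR3G and H3K27Ac in both lists and PR and Maf1 with R5020.

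**Figure D4:**
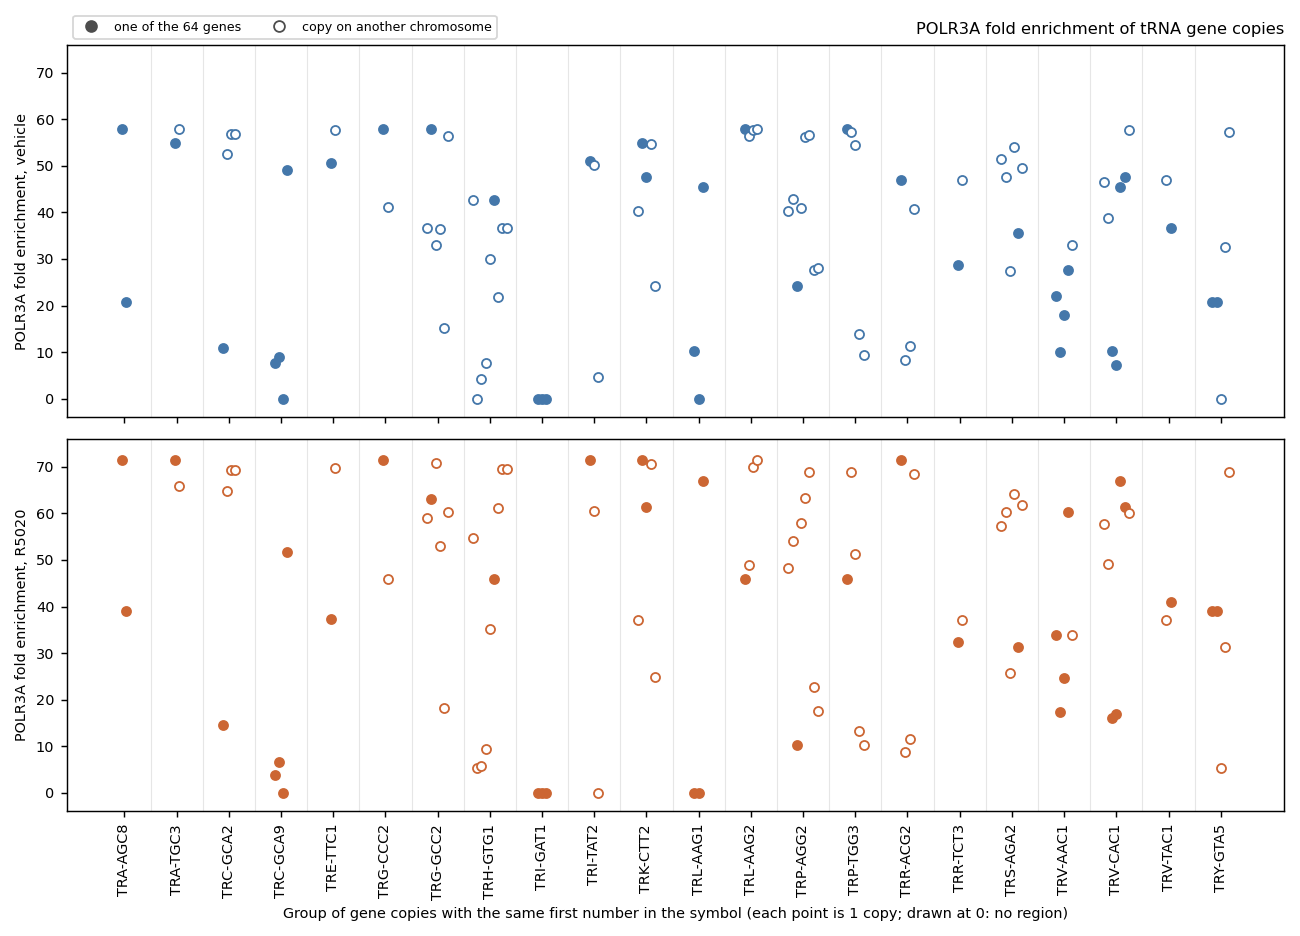
POLR3A fold enrichment with vehicle (top) and R5020 (bottom) for groups of tRNA gene copies whose symbols share the first number and that include at least 1 of the 64 genes (filled points) and at least 1 other copy; open points are copies on other chromosomes, and points at 0 had no region. Copies within a group are spread widely, from 10.9 to 56.8 among the TRC-GCA2 genes with vehicle. Each fold is that of the region assigned to the gene, which a neighbouring tRNA gene can share.

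No POLR3A region was found at 16 of the 64 genes in either list. Of these 8 were cysteine genes of the chromosome 7 cluster, 1 was TRL-AAG1-2, and 7 were remaining genes: TRY-ATA1-1 (tyrosine, within ARPC2), TRK-CTT9-1 (lysine), TRW-CCA5-1 (tryptophan), TRS-AGA5-1 (serine) and the 3 isoleucine genes TRI-GAT1-1, TRI-GAT1-2 and TRI-GAT1-3 on the X chromosome. None of the 16 had Brf1, POLR3C, POLR3GL, Maf1 or PR, and 14 were in none of the lists. TRW-CCA5-1 had POLR3G (fold 3.33 with vehicle, 2.94 with R5020) and vehicle H3K27Ac (2.94), and TRI-GAT1-2 had vehicle H3K27Ac (2.70). The TRI-GAT and TRY-ATA genes are the only ones with their anticodon among the 422.

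The 3 smaller polymerase subunits separated the genes further. POLR3G was found at 28 genes with vehicle (43.8%, 32.3 to 55.9; all tRNA genes 51.2%) and 27 with R5020 (42.2%, 30.9 to 54.4; all 48.1%). TRL-AAG1-3 had it with vehicle alone, at a fold of 3.29 (vehicle alone in 3.79% of all tRNA genes, R5020 alone in 0.711%). With R5020 the nearest POLR3G region ended 270 bp from this gene, and with a window of 1 kb POLR3G was at 28 genes in each list. The POLR3G regions of these genes stood near the top of a list of 58424 regions: their median percentile by fold was 99.8 with vehicle. The highest vehicle fold was 11.9 at TRM-CAT1-1, a methionine gene, and the highest R5020 fold was 12.6, in 1 region over the chromosome 5 genes TRL-AAG2-1, TRV-AAC2-1, TRP-TGG3-1 and TRT-TGT6-1.

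POLR3C was found at 17 genes with vehicle (26.6%, 17.3 to 38.5; all tRNA genes 23.5%) and 19 with R5020 (29.7%, 19.9 to 41.8; all 27.7%). Its folds were low, 2.75 to 5.19 with vehicle, where TRA-TGC3-1 was highest, and 3.32 to 6.05 with R5020, where TRY-GTA2-1 and TRA-AGC8-1 were highest. With a fold of at least 5 required, 1 gene was left with vehicle and 7 with R5020. TRY-GTA5-2 had POLR3C with vehicle alone, and TRR-ACG2-1, TRY-GTA5-1 and TRV-CAC1-5 had it with R5020 alone (all tRNA genes 2.37% and 6.64%). Most of these calls turn on the window. The nearest region of the other treatment ended 220 bp from TRY-GTA5-2, 282 bp from TRV-CAC1-5 and 702 bp from TRY-GTA5-1. POLR3GL was found at no gene with vehicle (all 0.00%) and at 1 with R5020 (all 2.37%), TRM-CAT1-1, with a fold of 3.69.

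H3K27Ac was found at 28 genes with vehicle (43.8%, 32.3 to 55.9; all tRNA genes 41.0%) and at 25 with R5020 (39.1%, 28.1 to 51.3; all 37.7%). The highest fold was at TRR-CCT4-1 with vehicle (25.1), an arginine gene within the spans of FMC1 and LUC7L2, and at TRI-TAT2-1 with R5020 (25.5). Acetylation was listed with vehicle alone at 4 genes (all 4.50%): TRV-CAC1-4 (fold 6.11), TRW-CCA5-1, TRC-GCA9-4 and TRI-GAT1-2. It was listed with R5020 alone at TRK-CTT2-2 (fold 6.99, all 1.18%), whose region ended 197 bp away. With vehicle the nearest acetylated region ended 294 bp from this gene. With a fold of at least 5, or a -log10 q of at least 5, 25 genes were left in each list.

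Acetylated genes had more of the polymerase subunits in the lists. With R5020, all 25 genes with H3K27Ac had POLR3A, Brf1 and POLR3G, and 19 had POLR3C. Of the 39 genes without H3K27Ac, 13 had Brf1, 2 had POLR3G and 0 had POLR3C. The median POLR3A fold in the R5020 list was 60.1 (31.2 to 71.4, 17 regions) at acetylated genes and 16.5 (3.85 to 66.9, 18 regions) at the others. The ranges overlapped. At the other 358 tRNA genes 131 of 134 acetylated genes had POLR3G.

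The vehicle list placed Maf1 at 2 genes (3.13%, 0.861 to 10.7; all tRNA genes 3.32%) and the R5020 list at 16 (25%, 16.0 to 36.8; all 22.3%), and 14 had it with R5020 alone (all 19.2%). None had it with vehicle alone (all 0.237%). Both shares lie near those of all tRNA genes. With vehicle the genes were TRS-AGA2-5 (serine, chr8:95269657-95269738, fold 3.92) and TRM-CAT1-1 (chr8:123157230-123157302, 3.22). With R5020 their folds in that list were 3.93 and 5.53.

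The 14 genes with Maf1 under R5020 alone were spread over chromosomes 2, 3, 5, 7, 8 and 9. On chromosome 2 the folds were 2.84 at TRY-GTA2-1, 3.77 at TRA-AGC8-1 and 6.12 at TRI-TAT2-1, the highest of the 64 genes. On chromosome 3 they were 5.33 at TRR-ACG2-1 and 3.71 at TRV-AAC1-1. In the chromosome 5 cluster they were 3.39 at TRL-AAG2-1, 4.54 at TRV-AAC2-1 and 3.55 in a region shared by TRK-CTT2-3 and TRV-CAC1-5. The cluster's Maf1 genes thus all lay in its last stretch. The fold was 3.59 at TRR-CCT4-1 on chromosome 7 and 4.60 at the arginine gene TRR-TCT3-1 (chr9:128340076-128340166). On chromosome 8 it was 3.08 at TRY-GTA5-1 and 2.31, the lowest, in a region shared by TRY-GTA5-2 and TRA-AGC8-2.

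These Maf1 regions were weak within their list. The median fold of the 14 distinct R5020 regions was 3.74, at percentile 33.9 of that list, and at the other 358 tRNA genes it was 4.17. When the R5020 list was limited to its strongest 3049 regions, the length of the vehicle list, Maf1 was at 0 of the 64 genes against 2 with vehicle, the opposite direction. With a -log10 q of at least 5 it was at 1 gene with vehicle and 8 with R5020, and with a fold of at least 5 at 0 and 3. The depth behind the 2 lists is unknown, and its part in the difference was not tested.

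PR was found at 1 gene with vehicle (1.56%, 0.276 to 8.33; all tRNA genes 2.13%) and at 16 with R5020 (25%, 16.0 to 36.8; all 25.4%), so these genes had PR about as often as tRNA genes did in all. At 15 genes it was listed with R5020 alone (all 23.2%) and at none with vehicle alone (all 0.00%). Limiting the R5020 list to its strongest 6663 regions, the length of the vehicle list, left 2 of the 16 genes against 1 with vehicle. These 2, TRY-GTA5-2 and TRA-AGC8-2, share 1 region, so 1 region stood against 1, and the vehicle gene was not among them. The vehicle gene was TRM-CAT1-1, with a fold of 2.80 and a -log10 q of 2.86, and its R5020 fold was 24.9. The gene lies within TBC1D31, 7871 bp from the nearer end of it, and was in 15 of the 16 lists, more than any other of the 64.

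Among the R5020 PR regions the highest fold, 37.4, was at TRY-GTA5-2 and TRA-AGC8-2, which share a region within TRIM55 (genes at chr8:66113988-66114076 and chr8:66114189-66114261). TRK-CTT2-3 and TRV-CAC1-5, at the end of the chromosome 5 cluster, shared a region of fold 25.7, and TRV-AAC1-4, before them, had 14.9 in a region 193 bp away. TRY-GTA2-1 and TRA-AGC8-1 shared a region of fold 8.49. Of the 13 distinct PR regions, 3 thus belonged to a pair of tRNA genes. The other 8 genes had lower or similar folds: 8.47 at TRY-GTA5-1, 6.29 at TRR-TCT3-1, 5.97 at TRC-GCA9-4, 5.23 at TRT-TGT6-1 (threonine), 5.05 at both TRI-TAT2-1 and TRR-ACG2-1, 4.34 at TRS-AGA2-5 and 3.76 at TRV-AAC1-1. The median over the 13 distinct regions was 6.29, and at the other 358 tRNA genes it was 6.34.

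PR and Maf1 were listed together with R5020 at 13 genes, which is 13 of the 16 with PR and 13 of the 16 with Maf1. PR without Maf1 was found at TRC-GCA9-4, TRV-AAC1-4 and TRT-TGT6-1, and Maf1 without PR at TRL-AAG2-1, TRV-AAC2-1 and TRR-CCT4-1. At the other 358 tRNA genes both were found at 49, which is 49 of 91 with PR and 49 of 78 with Maf1. Whether the lists of the 2 antibodies share a control library is not given in the sources used here, and the difference between the 2 sets of genes was not tested.

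Both proteins were found where H3K27Ac was. With R5020, 15 of the 16 genes with PR and all 16 with Maf1 had H3K27Ac, TRC-GCA9-4 being the exception for PR. Neither protein was at 7 of the 25 acetylated genes. The same was seen at the other tRNA genes, where 76 of 91 genes with PR and 74 of 78 with Maf1 were acetylated. POLR3A was at all 16 genes with PR in both lists, and likewise at all 91 genes with PR among the other 358 tRNA genes. Its median fold in the R5020 list was 52.5 (31.2 to 71.4, 12 regions) at genes with PR and 24.7 (3.85 to 71.4, 23 regions) at genes without. In the vehicle list the medians were 42.4 (12 regions) at the genes with PR under R5020 and 17.4 (26 regions) at the others. Among the remaining 29 genes alone the medians were close, 46.2 with PR and 39.2 without in the R5020 list, and in the opposite order in the vehicle list, 37.1 and 39.6. In the chromosome 5 cluster they were 60.3 and 24.7 in the R5020 list and 46.1 and 17.9 in the vehicle list. At the other 358 tRNA genes they were 58.4 and 36.9 in the R5020 list and 46.6 and 33.8 in the vehicle list.

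The summits placed the proteins differently around the genes. The POLR3A summit lay inside the gene at 38 of 48 genes with vehicle and 35 of 44 with R5020. These equal the 38 and 35 distinct regions, so each region peaked inside a tRNA gene. The other genes shared a region that peaked in a neighbour. Counts and medians here are over genes, so a shared region counts more than once. Brf1 summits lay beside the gene, at a median of 12 bp with vehicle and 10 bp with R5020, and inside it at 1 and 5 genes. The Maf1 summit with R5020 was inside the gene at 9 of 16 genes. PR summits with R5020 were inside none of the 16, at a median of 232.5 bp (58 to 675), and H3K27Ac summits were inside none, at medians of 314.5 and 409 bp. These are the summits of the region with the highest -log10 q in the window. TRR-ACG2-1 and TRS-AGA2-5 each had a second, weaker PR region that overlapped the gene (folds 3.55 and 2.99), with summits 72 and 320 bp away. With the closest summit of any region in the window, the PR median was again 232.5 bp with 0 inside, and the R5020 H3K27Ac median was 321 bp. The gene table gives no strand, so upstream and downstream were not separated.

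**Figure D5:**
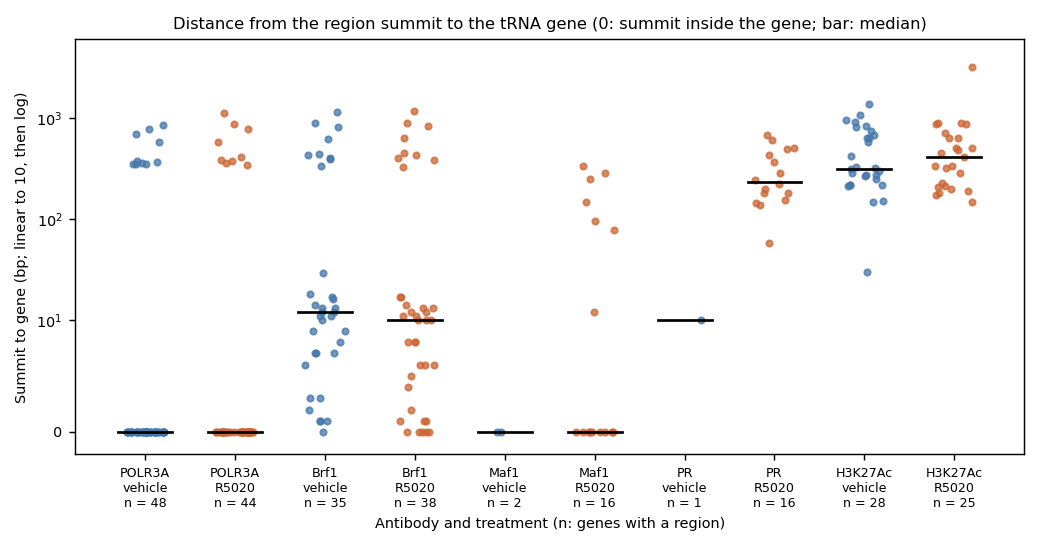
Distance from the summit of the region to the tRNA gene (vertical axis, bp, linear to 10 and logarithmic above) for genes with a region; each point is 1 gene, bars are medians, and 0 means a summit inside the gene. POLR3A points lie mostly at 0, Brf1 medians at 12 and 10 bp, and PR and H3K27Ac points further out, with R5020 medians of 232.5 and 409 bp.

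Position relative to protein-coding genes went with these differences. Of the 64 genes, 15 lay at most 1 kb from where a protein-coding gene starts or stops, and all 15 had POLR3A and Brf1 in both lists. H3K27Ac was at 14 of the 15 with each treatment, Maf1 with R5020 at 10 and PR with R5020 at 9. Of the 49 genes further away POLR3A was at 33 with vehicle and 29 with R5020, H3K27Ac at 14 and 11, Maf1 with R5020 at 6 and PR with R5020 at 7. At the other 358 tRNA genes PR with R5020 was at 21 of the 40 near such an end and at 70 of the 318 further away. Maf1 with R5020 was at 18 and 60 of these, and H3K27Ac with R5020 at 37 and 97. Position went with cluster: 14 of the 15 near genes were remaining genes, and 18 cysteine and 16 chromosome 5 cluster genes were among the 49. Within the remaining genes alone, H3K27Ac with R5020 was at 13 of 14 near genes and 3 of 15 further away, Maf1 at 9 and 3 and PR at 8 and 3. Exons and introns of the host genes were not analysed here.

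PR regions were also numerous around the genes without one in the window. The median distance from the 64 genes to the nearest R5020 PR region was 2701.5 bp, and 58 of them had one within 10 kb. It was 355 bp for the remaining genes, 3704 bp for the chromosome 5 cluster and 3728 bp for the cysteine cluster, against 1744.5 bp for the other 358 tRNA genes. With a window of 1 kb PR was at 4 genes with vehicle and 24 with R5020, and with overlap of the gene itself at 1 and 11. TRA-CGC3-1, whose nearest R5020 PR region ended 238 bp away, was the first outside the window for PR.

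Other RNA polymerase III genes, which code for small structural and regulatory RNAs, served as a comparison list of 13: the Y RNA genes RNY1, RNY3 and RNY4, the vault RNA genes VTRNA1-1, VTRNA1-2 and VTRNA1-3, the signal recognition particle genes RN7SL1 and RN7SL2, and RN7SK, RMRP, RPPH1, BCYRN1 and RNU6ATAC. POLR3A was at all 13 in both lists, against 48 and 44 of the 64 tRNA genes, and Brf1 was at 6 of them in both. Many of these genes use promoters upstream of the gene that do not need Brf1. Maf1 was at 1 of the 13 with vehicle and 5 with R5020, and PR at 2 and 9. H3K27Ac was at 10 and 8, POLR3G at 11 and 11, POLR3C at 4 and 3, and POLR3GL at 0 and 1.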

How the data were processed

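Per the submitters' processing notes, cutadapt, Bowtie2 and MACS2 were used with hg38; their settings, the control libraries and the way 3 replicates became 1 list are not given in the sources used here. In each of the 16 deposited peak lists the authors give a fold, a ratio over background, and a -log10 q-value per region, from 1.30 upward. No read counts are held, so depth and the precision it gives are unknown.

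Genes, 422 of 443 nuclear tRNA genes, came from a RefSeq table of GRCh38.p14, whose spans carry neither strand nor exons; the 21 others include none on these chromosomes. Where a list had several regions within 200 bp of a gene (14 of 345 gene and list pairs), the one with the highest -log10 q was taken. Clusters are runs with starts under 500 kb apart. The counting was tested on simulated data, where 640 of 640 planted regions were recovered with 0 false hits. They were planted at isolated tRNA genes cleared of other regions. Regions shared by neighbouring genes, and several regions near the same gene, were thus not tested. Python 3.11.15, numpy 2.4.6, pandas 2.3.3, scipy 1.17.1 and matplotlib 3.10.9 were used.

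Samples were grouped by title. Named genes are those with POLR3A or Brf1 in 1 treatment alone, with PR, Maf1 or POLR3GL, with the 5 highest POLR3A folds, or highest in another list; other genes were named as examples after their values were seen. The genes and lists were chosen with earlier results of these data known. Alternatives were a -log10 q or fold of at least 5, windows of 0 bp and 1 kb, and equal numbers of top regions. Sequence motifs were not analysed here.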

Additional observations from a re-analysis of the deposited data

How the results depend on the processing

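Of 80 recomputed counts of genes with a region (16 lists, 5 alternatives), 68 stayed within 1.5 times the reported count and 12 did not. With a fold of at least 5, POLR3C was at 1 gene with vehicle and 7 with R5020, POLR3GL with R5020 at 0, Maf1 at 0 and 3, and PR with vehicle at 0. With a -log10 q of at least 5, Maf1 was at 1 gene with vehicle and 8 with R5020, and PR with vehicle at 0. Within 1 kb PR with vehicle was at 4. With equal numbers of top regions Maf1 with R5020 was at 0 and PR with R5020 at 2, which share 1 region. The difference between treatments changed sign with equal numbers of top regions for Maf1 (2 to 0) and Brf1 (35 to 33); the cause was not tested. No paired analysis was possible because the lists carry no replicate numbers and no result comes from a test; for the same reason no replicate could be left out. The planned motif search was not run.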
